A study of Mus musculus with 22 samples.

Results

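*Pcdh19* and 8 other non-clustered protocadherin genes (*Pcdh1*, *Pcdh7*, *Pcdh8*, *Pcdh9*, *Pcdh10*, *Pcdh17*, *Pcdh18* and *Pcdh20*) were followed through 22 RNA-seq samples from WT and *Phf8* KO mice. The genes were taken from a fixed list of names and matched by Ensembl identifier, 9 of the 39179 genes counted, and all 9 were found. *Pcdh19* heads the list because it stood out between KO and WT prefrontal cortex in these same samples, so the values of the 9 genes in that comparison are a description. The counts of calls there are printed for reference, and nothing is read from them.

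The samples were embryonic stem cells (ESCs, 2 WT and 2 KO), neural progenitor cells (NPCs, 3 WT and 3 KO), and tissue of the ventral striatum (STR) and of the prefrontal cortex (PFC), each with 3 WT and 3 KO samples. Brain tissue came from mice of 2 months, NPCs from E16.5 embryos, kept as a monolayer, and ESCs from blastocyst outgrowths grown with gelatin or feeder cells. The strain background on the labels is B6x129SvJ, and the study's methods describe the KO allele as kept on a mixed C57B6/129SvJae background. *Phf8* encodes an X-linked histone demethylase, and the KO allele lacks 2 exons, removed with a CMV-driven Cre vector in clonally expanded cells of the male V6.5 ESC line from which the mice were made. The labels do not say whether samples of a group came from separate animals or cultures, so p-values measure the spread between these samples, which may be in part technical.

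Protocadherins are cadherin-type adhesion molecules of the cell surface, abundant in the nervous system. Unlike the alpha, beta and gamma protocadherins, which are encoded in gene clusters, the non-clustered members lie scattered over the genome and are expressed in differing combinations by region and cell type. Delta-1 members (among the 9 genes *Pcdh1*, *Pcdh7* and *Pcdh9*) and delta-2 members (among the 9 genes *Pcdh8*, *Pcdh10*, *Pcdh17*, *Pcdh18* and *Pcdh19*) differ in the number of their extracellular cadherin repeats and in the motifs of their cytoplasmic tails. Delta proteins mediate weak adhesion between like cells, axon growth and the removal of synaptic N-cadherin. PCDH19 acts together with N-cadherin, and mutations of the X-linked human gene cause an epilepsy with intellectual disability that mainly affects heterozygous females.

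On GRCm38, *Pcdh19* (ENSMUSG00000051323) occupies chromosome X from 133582860 to 133688987 on the minus strand, 17.83 Mb from *Phf8* on the same chromosome. *Pcdh8*, *Pcdh9*, *Pcdh17* and *Pcdh20* are on chromosome 14, with *Pcdh10* and *Pcdh18* on chromosome 3 and *Pcdh7* on chromosome 5. The exons of *Pcdh7* share 21.1% of their bases with 4932441J04Rik on the opposite strand, which had 221 counts over all samples, and those of *Pcdh8* share 9.6% with the antisense gene Gm9748. For ESCs and NPCs the deposited tables are marked as counted without strand. Reads on bases shared by a pair of counted genes, such as *Pcdh7* and 4932441J04Rik, are then set aside as ambiguous (1.29% to 1.6% of a sample's reads there). *Pcdh7* may thus be undercounted in these cells. Gm9748 was not among the genes counted, so reads of either strand on the shared bases would count for *Pcdh8*. The exon overlaps of the other members were 1.0% or less.

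The RefSeq promoter table (GRCm38.p6) held start sites for 8 of the 9 genes. The 250 bases upstream of the start site are printed 5′ to 3′ for *Pcdh19*, *Pcdh10* and *Pcdh17*, the 3 members whose KO and WT samples were furthest apart relative to their spread in PFC, with each CG dinucleotide in capitals. They lie at chrX:133688994-133689243 (minus strand), chr3:45378148-45378397 (plus strand) and chr14:84443313-84443562 (plus strand).
Pcdh19: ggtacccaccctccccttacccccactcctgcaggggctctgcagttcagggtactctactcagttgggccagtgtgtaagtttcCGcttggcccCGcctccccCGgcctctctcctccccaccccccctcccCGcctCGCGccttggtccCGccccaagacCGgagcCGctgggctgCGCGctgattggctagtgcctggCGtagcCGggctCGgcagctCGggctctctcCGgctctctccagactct
Pcdh10: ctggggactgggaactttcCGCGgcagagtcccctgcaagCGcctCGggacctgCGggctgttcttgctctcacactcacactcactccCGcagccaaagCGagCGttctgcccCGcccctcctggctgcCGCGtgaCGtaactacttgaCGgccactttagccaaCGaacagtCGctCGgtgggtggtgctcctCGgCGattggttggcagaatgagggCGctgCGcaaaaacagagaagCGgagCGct
Pcdh17: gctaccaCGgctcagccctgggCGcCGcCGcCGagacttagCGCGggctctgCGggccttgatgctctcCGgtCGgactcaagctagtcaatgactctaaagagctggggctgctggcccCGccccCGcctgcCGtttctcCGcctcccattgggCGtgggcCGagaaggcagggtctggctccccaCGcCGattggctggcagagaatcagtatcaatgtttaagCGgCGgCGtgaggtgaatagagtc

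The *Pcdh19* window held 16 CG dinucleotides and those of *Pcdh10* and *Pcdh17* 22 and 21, against a median of 6 over the 32851 windows of the same length in the table, and 74.6%, 85.2% and 83.7% of all windows had fewer. Among the other members *Pcdh18* had 23, *Pcdh9* 18, *Pcdh8* 11, *Pcdh7* 7 and *Pcdh20* 3. A TATA box (TATAAA, either strand) was found upstream of *Pcdh8* alone, where 12.4% of all windows hold it. The letters TTTNNCGC, an E2F-type motif found in 4.28% of windows, occurred in those of *Pcdh10* and *Pcdh18*. Neither the cAMP response element TGACGTCA (1.55% of windows) nor the E-box CACGTG (6.02%) was found in any of the 8. These letter matches are descriptions of the windows and were not linked to binding.

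The reads assigned to genes numbered 5898286 to 15539811 in a sample, with the lower totals in brain. *Phf8* itself separated the genotypes in all 4 tissues, from 41.9 to 66.5 CPM (group means of counts scaled to library size with TMM factors over all 22 samples) in WT to 15.7 to 19.2 CPM in KO samples, and every KO sample was below every WT sample. The tissue labels were checked against marker lists: the 7 pluripotent cell markers summed to 4400 to 5370 CPM in ESCs and to at most 6.63 CPM elsewhere, 8 striatal neuron markers to 1310 to 1760 CPM in STR against 219 to 248 CPM in PFC, and 6 cortical neuron markers to 905 to 1130 CPM in PFC against 69.2 to 560 CPM in STR. A list of 8 cortical layer markers did not separate the regions, at 717 to 869 CPM in PFC and 713 to 865 CPM in STR.

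Libraries of ESCs, NPCs and STR stood apart. In ESCs, replicate 2 of both genotypes held 3460 (WT) and 4230 CPM (KO) of 6 fibroblast markers against 159 and 149 CPM in replicate 1, and 8 neural progenitor markers followed (1340 and 1510 CPM against 238 and 247 CPM). In NPCs, replicate 2 of both genotypes held 219 and 412 CPM of 6 oligodendrocyte markers against 1890 to 3140 CPM in replicates 1 and 3. In STR, KO replicate 1 held 233 CPM of 10 hypothalamic markers against 52.3 and 40.1 CPM in KO replicates 2 and 3 and 26.9 to 30.6 CPM in WT, with the least cortical neuron marker RNA (69.2 CPM). KO replicates 2 and 3 were also above every WT sample for *Gal* (5.75 and 5.44 against at most 0.902 CPM), *Oxt* (9.61 and 2.66 against at most 1.0 CPM) and *Avp* (6.08 and 2.53 against at most 1.5 CPM), which encode hypothalamic peptides. The same held for *Trh* and, at low levels, *Pmch*. The other markers of the list did not follow in these KO replicates. *Crh*, *Otp* and *Agrp* lay within the WT range, *Hcrt* overlapped it, and *Sim1* was not detected, as in WT. In bulk RNA, fewer cells of a type and less RNA per cell cannot be told apart.

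*Pcdh19*, a partner of N-cadherin on the cell surface, was highest in KO brain. In PFC its WT replicates 1 to 3 held 60.7, 53.5 and 52.0 CPM, and its KO replicates 85.9, 87.4 and 91.7 CPM. In STR the WT replicates held 44.9, 60.0 and 54.7 CPM and the KO replicates 86.0, 71.2 and 95 CPM. All 6 KO brain samples thus lay above all 6 WT brain samples. That is a description, since *Pcdh19* was chosen from the PFC samples and the STR samples may come from the same animals. In NPCs it ranged from 25.8 to 65.1 CPM in WT and from 29.1 to 66.3 CPM in KO samples. In ESCs it was 2.91 and 28.8 CPM in WT and 3.36 and 34.6 CPM in KO replicates 1 and 2. The order of the 8 group means ran from KO PFC (88.3 ± 3.03 CPM, SD, n = 3) and KO STR (84.0 ± 12) through WT PFC (55.4 ± 4.65), WT STR (53.2 ± 7.65), KO NPCs (43.8 ± 19.7) and WT NPCs (42.2 ± 20.5, each n = 3) to KO ESCs (19.0 ± 22.1) and WT ESCs (15.8 ± 18.3, both n = 2). Of the 7 pairs of neighbours in that order, KO STR and WT PFC did not overlap, and the sample ranges of the other 6 pairs did.

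**Figure D1:**
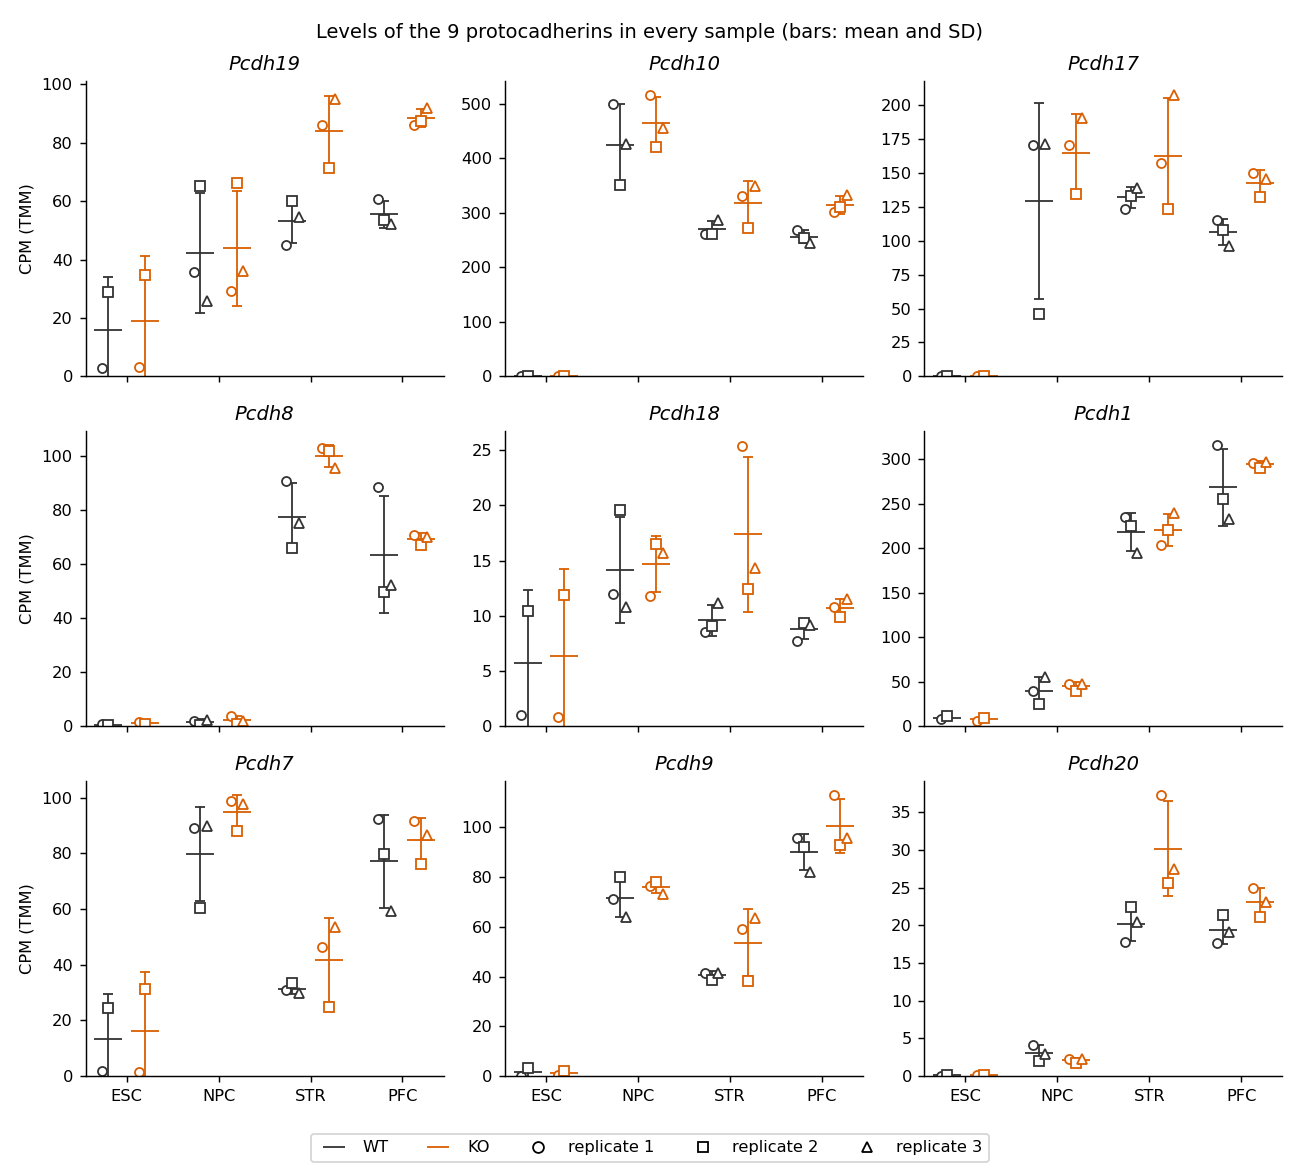
Levels of the 9 genes in CPM (counts scaled to library size, linear axes from 0) in each of the 22 samples, by tissue and genotype, with the mean and SD of each group (bars that would pass below 0 end at the axis). *Pcdh19* lay at 71.2 to 95 CPM in the 6 KO brain samples and at 44.9 to 60.7 CPM in the 6 WT brain samples, while ESC replicate 2 was 28.8 and 34.6 CPM against 2.91 and 3.36 CPM in replicate 1. *Pcdh19* was chosen from the PFC samples shown here.

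Levels of different genes were compared per kilobase of exon (RPKM computed from the same scaled counts). In WT PFC the most abundant member was *Pcdh1*, known best from epithelia and as a regulator of SMAD3 signalling, at 30.5 ± 4.91 RPKM (SD, n = 3). *Pcdh10* (16.1 ± 0.763), *Pcdh8* (14.0 ± 4.80) and *Pcdh9* (13.3 ± 1.05) followed with overlapping ranges between neighbours. *Pcdh17* (8.19 ± 0.726), *Pcdh7* (7.27 ± 1.57) and *Pcdh19* (5.30 ± 0.445) came next, and *Pcdh20* (3.52 ± 0.340) and *Pcdh18* (1.64 ± 0.168) were the least abundant. *Pcdh19* was thus the 7th of the 9 in WT PFC, and with 8.44 ± 0.290 RPKM (SD, n = 3) it was the 6th in KO PFC, above *Pcdh7* (7.99 ± 0.747) but with overlapping ranges.

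In WT STR *Pcdh1* again led at 24.8 ± 2.47 RPKM (SD, n = 3), with *Pcdh8* (17.0 ± 2.79) and *Pcdh10* (17.0 ± 0.909) next. *Pcdh7* (2.95 ± 0.171 RPKM) and *Pcdh18* (1.79 ± 0.260) were the lowest there. In WT NPCs *Pcdh10*, which binds the actin-regulating WAVE complex, led at 26.8 ± 4.65 RPKM (SD, n = 3), and no sample overlapped with the next member, *Pcdh9* (10.6 ± 1.17). *Pcdh8* was the lowest member in WT NPCs, at 0.353 ± 0.218 RPKM. ESCs held little of any member, with group means of 1.51 RPKM or less in WT and 1.81 RPKM or less in KO samples.

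Summed over the 9 genes, the level was 1.78 and 9.02 RPKM in the WT ESC samples, 56.3 to 74.8 RPKM in WT NPCs, 87.1 to 90.9 RPKM in WT STR and 88.7 to 114 RPKM in WT PFC. *Pcdh10* made up 39.9% of that sum in WT NPCs, 19.3% in WT STR and 16.3% in WT PFC (means over samples). *Pcdh8* went the other way, with 0.503% in WT NPCs, 19.2% in WT STR and 13.8% in WT PFC. *Pcdh19* took 5.33% of the sum in WT PFC and 7.22% in KO PFC, with sample ranges of 5.07% to 5.61% and 6.85% to 7.42%. Its share in STR was 5.76% in WT (4.72% to 6.58%) and 7.40% in KO samples (7.10% to 7.73%), so that in both brain regions the sample ranges of the genotypes did not overlap. These shares are a description, since *Pcdh19* was chosen from the PFC samples and STR cannot be taken as independent of them.

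**Figure D2:**
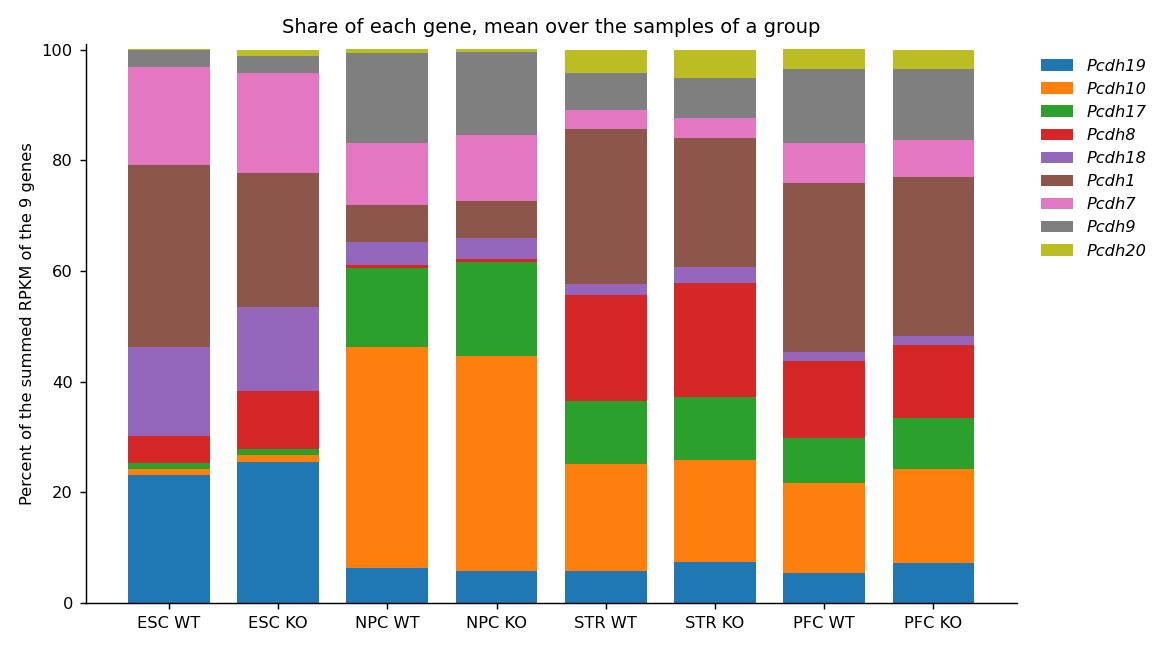
Share of each gene in the summed RPKM of the 9 genes (stacked bars, mean over the samples of each of the 8 groups, axis in percent). *Pcdh10* made up 39.9% in WT NPCs and *Pcdh1* 30.5% in WT PFC, and the ESC bars rest on sums of only 1.78 and 9.02 RPKM in WT samples.

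For the adult cortex, KO was compared with WT PFC. Loss of *Phf8* and any other difference that goes with the KO genotype cannot be told apart in the KO comparisons. There *Pcdh19* had a log2 fold change of 0.66 (SE 0.08, 95% interval 0.49 to 0.83), or 1.58-fold. That interval does not allow for the choice of *Pcdh19* from this same contrast. *Pcdh17*, a delta-2 member known from synaptic vesicle assembly in corticobasal circuits, measured 115, 108 and 96.2 CPM in the WT replicates against 150, 132 and 145 CPM in KO, which gave a log2 fold change of 0.41 (SE 0.08). *Pcdh10* measured 269, 254 and 245 CPM in WT against 301, 311 and 332 CPM in KO samples, which gave 0.29 (SE 0.07). For these 3 genes every KO sample was above every WT sample.

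*Pcdh18*, which binds the reelin adaptor DAB1, was the fourth member without overlap in PFC, at 7.74 to 9.38 CPM in WT and 9.88 to 11.5 CPM in KO samples (log2 fold change 0.28, SE 0.15). The log2 fold changes of the other 5 were 0.24 (*Pcdh20*, SE 0.12), 0.15 (*Pcdh9*, SE 0.09), 0.12 (*Pcdh1*, SE 0.10), 0.12 (*Pcdh7*, SE 0.13) and 0.11 (*Pcdh8*, SE 0.20), with overlapping samples. *Pcdh8* is an activity-induced gene (arcadlin), and its WT samples were wide apart, at 88.7, 49.9 and 52.2 CPM, while the KO samples lay between 67.1 and 71.0 CPM.

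All 9 fold changes in PFC were thus above 0, with a median of 0.24, and 44.1% of the 15364 genes tested were above 0, with a median of -0.02. Without WT replicate 2 the value of *Pcdh8* was -0.04 and without WT replicate 3 that of *Pcdh7* was -0.02. The quasi-likelihood (QL) test of edgeR, with genes called at an FDR under 0.05, called 2 of the 9, *Pcdh19* and *Pcdh17*, where 98 of all genes tested were called in either direction (0.638%) and 0.163% as higher. Every KO sample was above every WT sample for 4 members and for 8.72% of all genes tested. *Pcdh19* was chosen for this contrast, so nothing is read from these counts, which also moved with the setting. No member was called without KO replicate 2 or without KO replicate 3, and *Pcdh19* alone without WT replicate 2, without KO replicate 1 or with at least 10 counts required in every sample. *Pcdh10* was called beside *Pcdh19* and *Pcdh17* in DESeq2, in edgeR's exact test and without the filter on low counts. *Pcdh8* was called beside them without WT replicate 1. In PFC the 6 oligodendrocyte markers summed to 1700 to 2240 CPM in WT and 1390 to 1480 CPM in KO samples, and *Mog*, *Mag* and *Mobp*, which encode proteins of the myelin sheath, were lower at an FDR under 0.05. The part of that difference in the values of the 9 genes was not tested.

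The same comparison was made in STR. Its samples deviated together with the same-numbered PFC samples in both genotypes and may come from the same animals, so STR cannot be taken as independent of the contrast from which *Pcdh19* was chosen. The 9 genes leaned the same way there, and none passed the FDR threshold of the edgeR QL test. *Pcdh19* had a log2 fold change of 0.67 (SE 0.13, 95% interval 0.38 to 0.96), or 1.59-fold, with all 3 KO samples above all 3 WT samples. Its FDR was 0.291 in that test, at an unadjusted p-value of 0.000488 from edgeR. With the same counts the FDR was 0.00323 in DESeq2, 0.00148 in edgeR's exact test and 0.0456 in the QL test without the filter on low counts. Over all alternatives run in STR its FDR lay between 0.00148 and 0.75, and its log2 fold change between 0.56 and 0.77.

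*Pcdh18* had the largest fold change of the 9 in STR, from 8.52, 9.05 and 11.2 CPM in WT to 25.4, 12.4 and 14.3 CPM in KO replicates 1 to 3, or 0.87 on the log2 scale (SE 0.27, edgeR FDR 0.427). The highest of these values was in KO replicate 1, the library with the most hypothalamic marker RNA, and without it the log2 fold change was 0.48. *Pcdh20* was similar, from 17.8, 22.4 and 20.4 CPM in WT to 37.3, 25.6 and 27.5 CPM in KO replicates, a log2 fold change of 0.59 (SE 0.16, edgeR FDR 0.411) and of 0.40 without KO replicate 1. *Pcdh8* was the fourth member whose genotypes did not overlap in STR, at 91.0, 65.9 and 75.1 CPM in WT and 103, 102 and 95.6 CPM in KO replicates (log2 fold change 0.38, SE 0.11, edgeR FDR 0.414).

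Of the remaining genes in STR, *Pcdh7* and *Pcdh9*, delta-1 members that can bind protein phosphatase PP1, shared a pattern. Their KO replicates 1 and 3 were above all WT samples and KO replicate 2 was below them, at 46.5, 24.8 and 53.6 CPM for *Pcdh7* (WT 29.8 to 33.3 CPM) and 59.0, 38.3 and 63.6 CPM for *Pcdh9* (WT 38.7 to 41.5 CPM). *Pcdh17* ranged from 123 to 207 CPM in KO and from 123 to 139 CPM in WT samples, and *Pcdh10* from 272 to 350 CPM in KO and from 262 to 287 CPM in WT samples. Their log2 fold changes were 0.41 (*Pcdh7*, SE 0.24), 0.41 (*Pcdh9*, SE 0.16), 0.31 (*Pcdh17*, SE 0.16) and 0.24 (*Pcdh10*, SE 0.10). *Pcdh1* gave 0.02 (SE 0.09, 95% interval -0.19 to 0.23), at 194 to 235 CPM in WT and 203 to 239 CPM in KO samples.

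All 9 fold changes in STR were above 0, with a median of 0.41, where 50.6% of the 15476 genes tested were above 0, with a median of 0.0. No gene was called by the edgeR QL test (0 of 15476, 0%), and at an unadjusted p-value under 0.05 there were 1346 genes (8.70%), of which 878 (5.67%) were higher, and 6 of the 9 members, all higher. *Phf8* itself also missed the threshold of that test in STR (log2 fold change -1.37, SE 0.15, edgeR FDR 0.0956). DESeq2 called 53 genes in all and edgeR's exact test 104, with *Pcdh19* the single member among them in each. Every KO sample was above every WT sample for 4 of the 9 members and for 6.49% of all genes tested. Without KO replicate 1 the 9 log2 fold changes lay between 0.07 and 0.64, with *Pcdh19* the highest, and *Pcdh1* was -0.05 without WT replicate 3 and -0.03 without KO replicate 3. Of the 10 hypothalamic markers, 5 were tested in STR and all 5 had a fold change above 0 (none at 0 counts in all KO samples, *Sim1* at 0 in all WT samples). The part of those cells in the values of the 9 genes was not tested, nor was the difference in effect between the 2 regions.

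**Figure D3:**
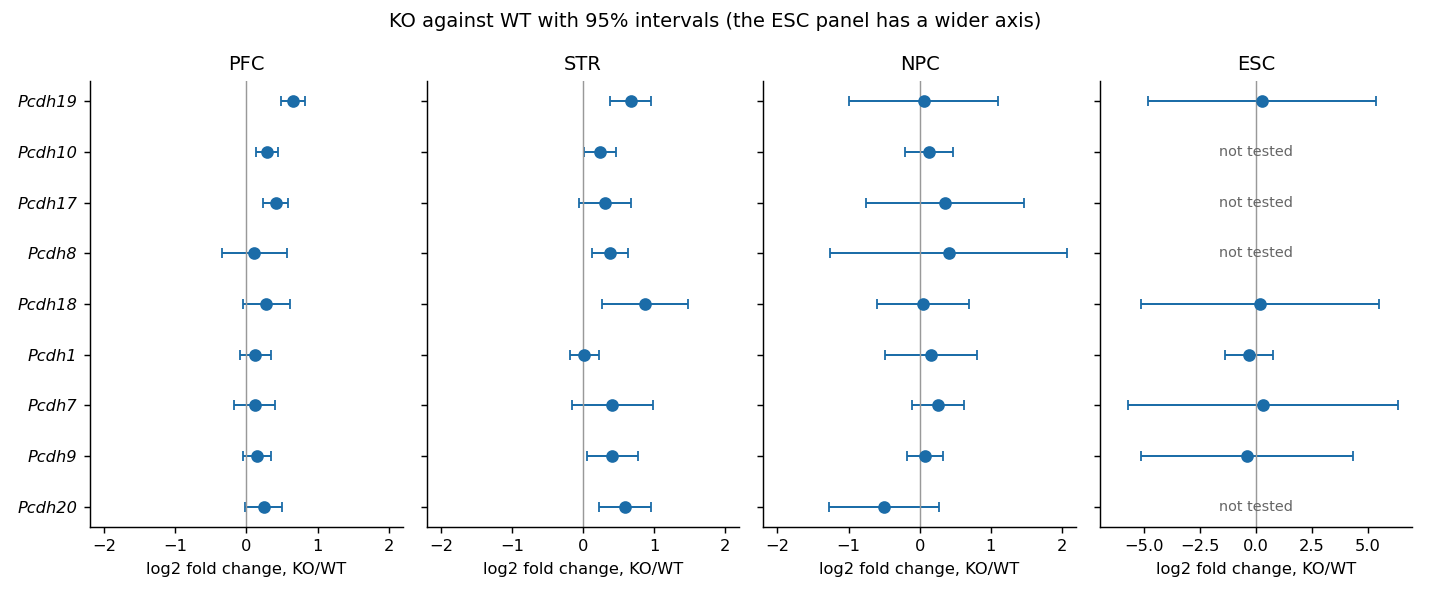
Log2 fold change of KO over WT (points) with 95% intervals (bars) from edgeR for the 9 genes in PFC, STR, NPCs and ESCs, where the ESC panel has a wider axis and members below the count filter are marked as not tested. In both brain regions all 9 points were above 0, with *Pcdh19* at 0.66 and 0.67, and in ESCs the interval of *Pcdh19* ran from -4.84 to 5.38. The PFC values are a description, since *Pcdh19* was chosen from that contrast.

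In cultured NPCs no member was called between genotypes, with or without the replicate block. *Pcdh19* had a log2 fold change of 0.06 (SE 0.44, 95% interval -1.0 to 1.11), *Pcdh10* of 0.13 (SE 0.14) and *Pcdh17* of 0.36 (SE 0.46). *Pcdh7* (0.26, SE 0.15), *Pcdh1* (0.16, SE 0.27), *Pcdh9* (0.08, SE 0.10) and *Pcdh18* (0.05, SE 0.27) were likewise close to their errors. *Pcdh8* and *Pcdh20* were barely expressed, at 5 to 42 and 21 to 51 counts per sample, with log2 fold changes of 0.41 (SE 0.70) and -0.50 (SE 0.32). Without the block the QL test called none of the 9, and none had an unadjusted p-value under 0.05 (435 of all genes, 3.03%), nor was any called by DESeq2 or edgeR's exact test. Of the 9 fold changes 8 were above 0, as were 51.1% of all, and for 0 of the 9 was every KO sample above every WT sample (3.57% of all genes tested). Over all genes 1 of 14351 was called (0.00697%), *Phf8*. The replicate number, which pairs WT and KO samples in NPCs, gave 3 called genes as a block and no member among them. With the block *Pcdh19* was at 0.07 (SE 0.15) with a 95% interval of -0.31 to 0.45, so that the log2 fold changes of the brain lay inside the interval without the block and outside that with it. The difference between NPCs and brain was not tested. Within the same-numbered pairs *Pcdh7*, *Pcdh10* and *Pcdh17* were higher in KO in 3 of 3 and *Pcdh20* lower in 3 of 3. Of these *Pcdh7* alone had an unadjusted p-value under 0.05 with the block (0.27, SE 0.09, edgeR FDR 0.422), and *Pcdh10* was at 0.14 (SE 0.06), *Pcdh17* at 0.53 (SE 0.38) and *Pcdh20* at -0.47 (SE 0.25).

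Replicate 2 stood apart for *Pcdh19* in NPCs of both genotypes. It held 65.1 (WT) and 66.3 CPM (KO), against 25.8 to 36.1 CPM in replicates 1 and 3 of both genotypes. *Pcdh17* was at 46.1 CPM in WT replicate 2 and at 134 CPM in KO replicate 2, against 170 to 190 CPM in the others. *Pcdh8* (0.464 and 0.793 CPM against 1.99 to 3.71) and *Pcdh10* (351 and 421 CPM against 426 to 516) were also lowest there in both genotypes. So were *Pcdh1*, *Pcdh7* and *Pcdh20*, while *Pcdh18* and *Pcdh9* were highest there. Replicate 2 was thus the lowest or highest sample of each genotype for every member. In the same 2 libraries the oligodendrocyte marker sum was lowest, and its part in these values was not tested.

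In ESCs 5 of the 9 genes had enough counts to be tested, and the edgeR QL test called none (0 of 15080 genes, 0%, with 171 genes, 1.13%, and none of the 5 at an unadjusted p-value under 0.05). *Phf8* itself was not called by that test in ESCs either, at a log2 fold change of -1.79 (SE 0.22). DESeq2 called 3 genes and edgeR's exact test 2, no member among them. The log2 fold change of *Pcdh19* was 0.27 (SE 1.69, 95% interval -4.84 to 5.38), an interval set by the distance between replicates. Compared within a replicate number, without a test, KO over WT was 1.15 in replicate 1 and 1.2 in replicate 2 for *Pcdh19*, 0.734 and 1.27 for *Pcdh7*, 0.792 and 1.15 for *Pcdh18* and 0.715 and 0.850 for *Pcdh1*.

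*Pcdh19*, *Pcdh7*, *Pcdh18* and, at low counts, *Pcdh9* were higher in ESC replicate 2 than in replicate 1 of both genotypes. *Pcdh19* went from 29 to 336 counts in WT and from 38 to 351 counts in KO cells. *Pcdh7* went from 18 to 287 and from 15 to 317 counts, and *Pcdh18* from 10 to 121 and from 9 to 121 counts. In CPM these were 9.87-fold and 10.3-fold for *Pcdh19*, 13.6-fold and 23.5-fold for *Pcdh7*, and 10.3-fold and 15.0-fold for *Pcdh18*. *Pcdh9* went from 1 to 37 and from 4 to 22 counts, and *Pcdh1* differed by only 1.43-fold and 1.70-fold. The fibroblast markers moved the same way in all 6 genes: *Col1a1*, the main fibrillar collagen chain, was at 81.3 and 78.6 CPM in replicate 1 and at 1630 and 2000 CPM in replicate 2. Their part in the *Pcdh19* signal of ESCs was not tested. *Pcdh10*, *Pcdh17*, *Pcdh8* and *Pcdh20* had at most 17 counts in any ESC sample, and *Pcdh20* had 0 counts in WT replicate 1, which allows a level of up to 0.301 CPM by counting error alone.

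**Figure D4:**
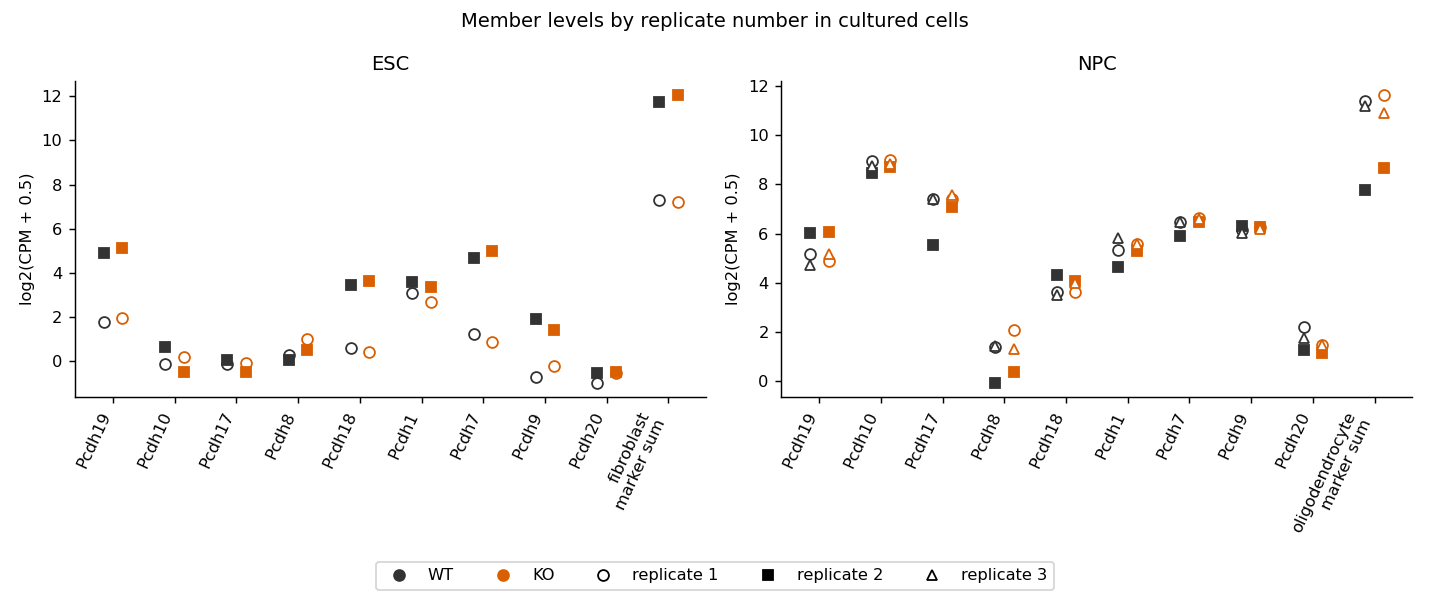
Levels of the 9 genes in ESCs and NPCs on the log2(CPM + 0.5) scale, by genotype (colour) and replicate number (symbol, replicate 2 filled), beside the summed fibroblast markers (ESCs) or oligodendrocyte markers (NPCs). In ESCs *Pcdh19*, *Pcdh7* and *Pcdh18* and the fibroblast markers were higher in replicate 2 of both genotypes, and in NPCs replicate 2 had the most *Pcdh19* and the least *Pcdh17* and oligodendrocyte marker RNA.

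How the 9 genes differ along the way from pluripotent cells to neural progenitors was asked in WT cells alone. In NPCs over ESCs, the edgeR QL test called 5 of the 9 as higher and none as lower, while 71.2% of the 15938 genes tested were called, 34.6% as higher. *Pcdh10* went from 0.402 and 1.03 CPM in ESCs to 499, 351 and 426 CPM in NPCs, a log2 fold change of 9.23 (SE 0.39, edgeR FDR 7.32e-05). *Pcdh17* went from 0.402 and 0.514 to 170, 46.1 and 171 CPM (8.17, SE 0.96, edgeR FDR 0.00113). Both thus changed from 4 to 12 counts per ESC sample to at least 497 per NPC sample.

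The other 3 were *Pcdh9* (log2 fold change 5.46, SE 0.89, edgeR FDR 0.00348), *Pcdh20* and *Pcdh1* (2.11, SE 0.40, edgeR FDR 0.00582). *Pcdh20* rested on 111 counts in NPCs and 2 in ESCs, a ratio of 32.9 with an exact 95% counting interval of 8.88 to 275. *Pcdh7* missed the threshold (2.64, SE 0.99, edgeR FDR 0.059), as did *Pcdh8* (1.49, SE 0.75), *Pcdh19* (1.47, SE 0.97, edgeR FDR 0.223) and *Pcdh18* (1.37, SE 0.92). The values of *Pcdh19*, *Pcdh18* and *Pcdh7* moved with ESC replicate 2: without it, with 1 ESC sample left, their log2 fold changes were 3.91, 3.86 and 5.51. Without ESC replicate 1 that of *Pcdh7* was 1.75. *Pcdh7* passed with all samples in DESeq2 (FDR 0.0332) and in 1 fit of all 11 WT samples (edgeR FDR 0.00882). For 7 of the 9 genes every NPC sample was above every ESC sample, as for 38.6% of all genes tested.

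Between WT NPCs and WT PFC the genes split. *Pcdh8* rose most, from 2.13, 0.464 and 2.21 CPM in NPCs to 88.7, 49.9 and 52.2 CPM in PFC, a log2 fold change of 5.27 (SE 0.47, edgeR FDR 5.42e-05). *Pcdh1* (2.75, SE 0.29, edgeR FDR 0.000102) and *Pcdh20* (2.68, SE 0.27, edgeR FDR 3.51e-05) were also higher in PFC, and *Pcdh9* slightly so (0.34, SE 0.12, edgeR FDR 0.0273). *Pcdh10* (-0.72, SE 0.14, edgeR FDR 0.00149) and *Pcdh18* (-0.68, SE 0.26, edgeR FDR 0.0393) were lower. *Pcdh19* (0.40, SE 0.33), *Pcdh17* (-0.27, SE 0.46) and *Pcdh7* (-0.04, SE 0.20) did not pass.

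Of all 15957 genes tested between these tissues 77.1% were called, 40.0% as higher and 37.1% as lower in PFC. The calls of *Pcdh9* and *Pcdh18* were lost in 6 and 8 of 13 alternatives. Without NPC replicate 2, *Pcdh19* was higher in PFC (0.85, edgeR FDR 0.000326) and *Pcdh17* lower (-0.68, edgeR FDR 0.000135). The WT PFC samples here are those of the KO comparison from which *Pcdh19* was chosen. Brain and culture samples also differed in the share of reads placed in more than 1 location (7.62% to 8.90% in PFC, 33.2% to 34.3% in NPCs), and these differences and the tissue cannot be told apart.

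Of the 9 genes, *Pcdh7* and *Pcdh9* differed most between the 2 brain regions. *Pcdh7* measured 92.2, 79.8 and 59.3 CPM in WT PFC against 30.9, 33.3 and 29.8 CPM in WT STR, a log2 fold change of -1.28 for STR over PFC (SE 0.14, edgeR FDR 0.000103). *Pcdh9* measured 95.7, 92.2 and 82.0 CPM in PFC against 41.5, 38.7 and 41.4 CPM in STR, a log2 fold change of -1.13 (SE 0.09, edgeR FDR 8.43e-06). *Pcdh17* was the single member called higher in STR, at 123 to 139 CPM against 96.2 to 115 CPM (0.33, SE 0.09, edgeR FDR 0.0185), and this call was lost without STR replicate 2 or 3 (edgeR FDR 0.0604 and 0.0823). In all, 3 of the 9 were called, where 24.4% of the 15555 genes tested were called, 11.4% as higher and 13.0% as lower.

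For *Pcdh19* the 2 regions lay together, at a log2 fold change of -0.04 (SE 0.12, 95% interval -0.29 to 0.22), and the same held for *Pcdh10* (0.10, SE 0.08), *Pcdh20* (0.09, SE 0.13) and *Pcdh18* (0.15, SE 0.17). *Pcdh8* (0.31, SE 0.20, edgeR FDR 0.327) and *Pcdh1* (-0.27, SE 0.12, edgeR FDR 0.134) did not pass without a block. Samples of the 2 regions with the same number deviated together, and both passed once that number entered the fit as a block (0.33 and -0.27, edgeR FDR 0.00822 and 0.0202). In a single fit over all 11 WT samples no member was called between the regions, and *Pcdh7* and *Pcdh9* then had an edgeR FDR of 0.21 and 0.0681.

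**Figure D5:**
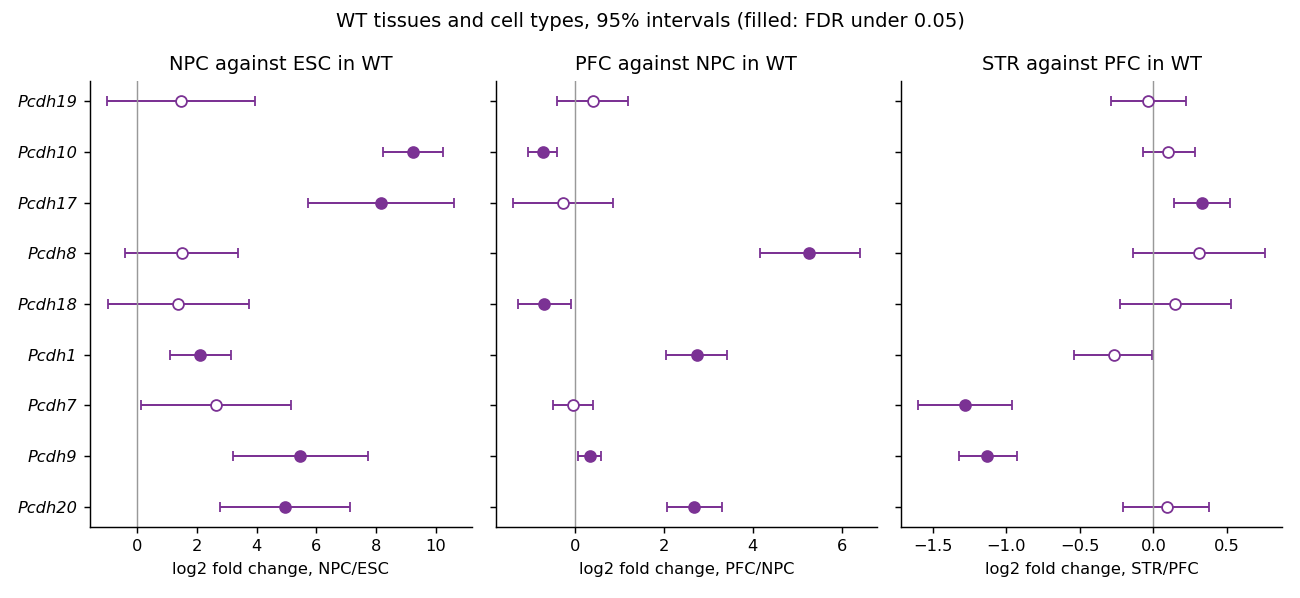
Log2 fold changes between WT tissues and cell types (points) with 95% intervals (bars) from edgeR, filled where the FDR was under 0.05 (axes differ between panels). *Pcdh10* (9.23) and *Pcdh17* (8.17) differed most between NPCs and ESCs, *Pcdh8* (5.27) between PFC and NPCs, and *Pcdh7* (-1.28) and *Pcdh9* (-1.13) between STR and PFC.

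Genes whose level went most with that of *Pcdh19* were ranked by Pearson's r on the log2(CPM + 0.5) scale among genes with a mean of at least 1 CPM, as a description, since the samples share tissue, genotype and depth. Over all 22 samples the 5 highest of 16157 genes were *Fam20a* (0.951), *Ifi27* (0.944), *Matn2* (0.929), *Dnajb4* (0.927) and *Cyp4v3* (0.924), and the closest member was *Pcdh18* (0.864, rank 95). Over the 12 brain samples, which include those *Pcdh19* was chosen from, the 5 highest of 15679 were *Sdk1* (0.947), *Fam185a* (0.942), *Nipal3* (0.937), *Gm7488* (0.920) and *Foxj3* (0.918). *Sdk1* encodes an adhesion molecule of the immunoglobulin superfamily found at synapses. The closest member in brain was *Pcdh10* (0.884, rank 15), followed by *Pcdh17* (0.726, rank 191) and *Pcdh20* (0.681, rank 312). *Pcdh8*, *Pcdh1*, *Pcdh7* and *Pcdh9* stood at 0.372 or less.

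The other genes of the family and its known partners were taken from fixed lists. *Pcdh11x* and *Pcdh15* were tested beside the 9, with log2 fold changes in KO of 0.02 (SE 0.11) and 0.26 (SE 0.19) in PFC and of 0.53 (SE 0.16) and 0.53 (SE 0.23) in STR, and neither was called by the edgeR QL test, though in STR each had an unadjusted p-value under 0.05. *Pcdh12* was below the count filter. Of 22 partner genes (among them *Cdh2* for N-cadherin, the WAVE complex, *Taok2*, *Dab1* and the PP1 catalytic subunits) none was called in KO brain by the QL test, DESeq2 or the exact test. At an unadjusted p-value under 0.05 there were 2 in PFC and 1 in STR, and the fold changes were above 0 for 11 and 10 of the 22, with medians of 0.0 and -0.01. A list of classical and type II cadherins also held *Cdh13* (T-cadherin, a membrane-anchored form without a cytoplasmic domain). Of its 18 genes tested in PFC, the edgeR QL test called 1 (DESeq2 1, exact test 3). This was *Cdh13*, with a log2 fold change of 0.53 (SE 0.10, edgeR FDR 0.0463). At an unadjusted p-value under 0.05 there were 10 of the 18 in PFC, 7 of them higher, against 11.2% of all genes tested and 4.73% as higher. None of 17 was called in STR by any of the 3 tests, with 3 at an unadjusted p-value under 0.05 in edgeR (8.70% of all genes tested).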

How the data were processed

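RNA-seq libraries (Illumina TruSeq RNA) of 22 samples were aligned by the authors with STAR to mm10/GRCm38 and counted with HTSeq on Ensembl release 75. What the authors deposited are raw, unnormalized read counts for each gene, and the summary rows that name no gene (20.2% to 53.1% of a sample's reads) were left out. The submitters' processing notes also name CASAVA 1.7, while the STAR and HTSeq versions and the strand setting of the brain counts are not given in the sources used here. Reads placed in more than 1 location were not counted, so near-identical copies are undercounted. Gene symbols, positions and exon lengths came from GENCODE M21 (37607 of 39179 identifiers, 99.709% of the counts), and promoter windows from RefSeq.

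Groups came from the labels. Each comparison was fitted on its own samples with edgeR 4.0.16 in R 4.3.3 (TMM, filterByExpr, robust quasi-likelihood test), with Benjamini-Hochberg adjustment over all genes tested and an FDR under 0.05. Levels are CPM with TMM factors over all 22 samples, and RPKM divides them by exon length. Alternatives were DESeq2 1.42.0, edgeR's exact test, RLE factors, dropping the filter or asking for at least 10 counts in every sample, a log2 fold change beyond 1, the replicate number as a block, KO samples in place of WT, all 11 WT samples in 1 fit, and each replicate left out in turn. The pipeline was tested on simulated data. Total counts per sample ranged from 5898286 to 15539811, and intervals and floors for counts cover counting error only. With 3 samples against 3 the spread between samples limits the precision.

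Replicate numbers are shared between groups in the labels. Deviations from group means correlated at 0.571, 0.705 and 0.52 between same-numbered WT and KO NPCs, and at 0.363, 0.184 and 0.394 (WT) and 0.171, 0.186 and 0.141 (KO) between same-numbered samples of PFC and STR, so the numbers were taken to pair these samples. All replicate pairs differed by more than sampling noise, with chi-square values of 1.89 to 40.5 per degree of freedom.

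The 9 genes and all lists were chosen with earlier results of these data known. Genes named are the 9, *Phf8*, the 5 most similar to *Pcdh19* over each sample set, overlapping genes, and list genes with an FDR under 0.05 or that define a cell type or list. The side-by-side values by replicate number were added after ESC replicate 2 was seen to stand apart.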

Additional observations from a re-analysis of the deposited data

How the results depend on the processing

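The count of genes called between KO and WT PFC (98) was 18 with a log2 fold change beyond 1, 196 in DESeq2, 379 without the filter, 375 in edgeR's exact test and 2 to 154 with 1 sample left out. In STR (0) it was 53 in DESeq2, 27 without the filter, 8 with the replicate block, 104 in the exact test and 0 to 2 with 1 sample left out. In NPCs (1) it was 5 in DESeq2, 2 without the filter, 3 with the replicate block, 2 in the exact test and 0 in each fit with 1 sample left out. In ESCs (0) it was 3 in DESeq2, 2 in the exact test and 513 with the replicate block, where the 2 same-numbered pairs correlated at 0.876, too few to take the numbers as pairs. Between STR and PFC (3791) it was 1292 with a log2 fold change beyond 1 and 2174 in 1 fit of all 11 WT samples. Same-numbered WT and KO samples correlated at -0.021 to 0.133 in STR and -0.032 to 0.04 in PFC, and were not taken as pairs. Beside *Pcdh8* and *Pcdh1* between STR and PFC, the block changed no call of a member.

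The KO split in PFC was 25 higher and 73 lower, against 64 and 132 in DESeq2, 137 and 242 without the filter, and 136 and 239 in the exact test.

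Among fold changes of the 9 genes and *Phf8* outside KO against WT PFC, where the 9 were not tested, 585 alternatives kept direction and side of the threshold, 27 gained a call, 27 lost one and 30 changed sign. *Pcdh7* between PFC and NPCs (-0.04) was 0.02 with RLE factors, 0.02 in DESeq2 and 0.08 with at least 10 counts in every sample. In KO PFC *Pcdh8* was -0.04 and *Pcdh7* -0.02 at their lowest with 1 sample left out. The other sign changes also came with 1 sample left out, as follows on the log2 scale. *Pcdh7* between PFC and NPCs ranged from -0.21 to 0.13 and *Pcdh19* between STR and PFC from -0.13 to 0.06. *Pcdh1* in KO STR ranged from -0.05 to 0.08. In KO NPCs *Pcdh19* ranged from -0.37 to 0.53, *Pcdh17* from -0.04 to 0.62, *Pcdh8* from -0.21 to 0.80, *Pcdh18* from -0.11 to 0.37 and *Pcdh1* from -0.08 to 0.46. In KO ESCs *Pcdh19* ranged from -2.31 to 2.75, *Pcdh18* from -2.90 to 2.70, *Pcdh1* from -0.82 to 0.03, *Pcdh7* from -3.38 to 3.22 and *Pcdh9* from -2.26 to 3.53. Where 1 ESC sample remained in a group it was assumed to vary like the others. The causes of these shifts were not tested. The low counts of *Pcdh8* and *Pcdh20* in cultured cells limit the precision there.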

Other observations

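The adhesion genes around the 9 differed between WT tissues as follows, in edgeR's quasi-likelihood test at an FDR under 0.05. Between NPCs and ESCs, 11 of the 12 tested genes of the cadherin list were called, against 71.2% of all genes tested. *Cdh1* (E-cadherin, log2 fold change -10.86, SE 0.40) and *Cdh3* (P-cadherin, -8.93, SE 0.70) were lower in NPCs. Another 9 were higher, such as *Cdh19* (9.0, SE 1.2), *Cdh20* (8.75, SE 0.54) and *Cdh2* (N-cadherin, 4.0, SE 0.89). *Pcdh11x* (9.10, SE 0.60) and *Pcdh15* (8.08, SE 0.75) were higher too, at sizes between those of *Pcdh17* and *Pcdh10* for *Pcdh11x*.

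Between PFC and NPCs, 14 of 18 cadherins were called, 8 higher and 6 lower in PFC, where 77.1% of all genes tested were called, 40.0% as higher and 37.1% as lower. *Cdh18* (9.05, SE 0.44) and *Cdh8* (7.58, SE 0.27) were among those higher, and *Cdh4* (-3.23, SE 0.19), *Cdh13* (-2.88, SE 0.19) and *Cdh2* (-1.67, SE 0.22) among those lower. *Pcdh11x* was lower in PFC (-1.26, SE 0.17). Between STR and PFC, 10 of 18 cadherins were called (24.4% of all genes tested), with *Cdh15* (2.32, SE 0.36) and *Cdh4* (1.42, SE 0.12) higher and *Cdh1* (-1.51, SE 0.41) and *Cdh12* (-1.24, SE 0.19) lower in STR. Among the partner genes, *Ppp1cc* (0.61, SE 0.11) was higher and *Cyfip2* (-0.37, SE 0.10) lower in STR.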
